A study of Mus musculus with 2 samples.

Results

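Ifitm1, Ifitm2, Ifitm3 and Ifitm6 encode interferon-induced transmembrane proteins, and Ifi27l2a encodes a small interferon-inducible protein of another family. These 5 of the 55401 genes in the deposited matrix were chosen by symbol, after earlier results of the same data had shown Ifitm1 higher in 1 library in macrophages and Ifi27l2a lower there in natural killer (NK) cells. Over all barcodes they held 741303 of 145686798 unique molecular identifiers (UMIs, the molecules counted in droplet sequencing). The cells were live, DAPI-negative lung cells sorted for CD45, a surface protein of white blood cells, from mice killed 7 weeks after they first received urethane, which is used to induce lung tumours in mice. By the labels there is 1 sample with the genotype WT and 1 with the genotype Siah1a/2 KO, which lacks a pair of ubiquitin ligases. Both had urethane. The sources used here do not give strain, age, sex, how the alleles were made or how many mice entered each sample. No label ties the barcode endings to a sample, so the libraries are called library 1 and library 2 and no genotypes were compared.

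Interferons are signalling proteins that cells release on infection and in inflamed or tumour-bearing tissue. Type I and type III interferons raise transcription through interferon response elements in promoters, and interferon gamma does so through gamma-activated sites. IFITM proteins sit in the plasma and endosomal membranes and hinder the fusion of enveloped viruses with the cell. IFITM3, the best-studied member, is held in endosomes, anchored by palmitoylation (through enzymes such as ZDHHC20) and degraded after ubiquitination by NEDD4. Immune cells can hold IFITM transcripts without infection, and resident memory T cells of the lung are known for it. IFI27L2A (also called ISG12) is interferon-inducible in many cell types and is best known from antiviral defence.

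The 4 Ifitm genes lie side by side on chromosome 7 and Ifi27l2a lies on chromosome 12. On GRCm38, in GENCODE M21, Ifitm2 spans chr7:140954837-140955987 on the minus strand with 2 exons, Ifitm1 spans chr7:140967221-140969825 on the plus strand with 2 to 3 exons, Ifitm3 spans chr7:141009586-141010770 on the minus strand with 2 exons, and Ifitm6 spans chr7:141015699-141017924 on the minus strand with 2 to 3 exons. The cluster covers 63088 bp. Ifi27l2a, with 4 exons, spans chr12:103442167-103443680 on the minus strand. All are protein-coding genes.

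RefSeq promoters (GRCm38.p6) were at hand for 4 of the 5 genes. They are shown because the genes are defined by their response to interferon, and the capitals mark letters that match either of a pair of motifs searched on both strands. These are GAAANNGAAA, written here for the interferon response element, and TTCNNNGAA, written for the gamma-activated site. Each line runs 5′ to 3′ from 90 bases before to 30 after the annotated start.
Ifitm1, chr7:140967986-140968105, plus strand: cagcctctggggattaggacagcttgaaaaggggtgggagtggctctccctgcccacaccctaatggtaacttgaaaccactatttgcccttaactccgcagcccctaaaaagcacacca
Ifitm2, chr7:140955932-140956051, minus strand: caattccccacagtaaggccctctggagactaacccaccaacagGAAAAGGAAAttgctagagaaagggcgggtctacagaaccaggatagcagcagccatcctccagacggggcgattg
Ifitm3, chr7:141010715-141010834, minus strand: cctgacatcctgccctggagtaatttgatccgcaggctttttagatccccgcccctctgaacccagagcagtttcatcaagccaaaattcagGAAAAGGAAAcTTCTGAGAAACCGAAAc
Ifitm6, chr7:141016863-141016982, minus strand: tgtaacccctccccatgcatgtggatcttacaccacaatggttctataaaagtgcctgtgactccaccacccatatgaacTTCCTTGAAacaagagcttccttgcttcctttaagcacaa

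The Ifitm3 window held GAAANNGAAA in 2 places after the start, and a TTCNNNGAA match overlapped the second of them. The Ifitm2 window held GAAANNGAAA before the start, the Ifitm6 window held TTCNNNGAA just before the start, and these letters were in neither form in the Ifitm1 window. Over windows of 300 bases (250 before to 50 after the start), 3.44% of 32851 promoters held GAAANNGAAA and 8.30% held TTCNNNGAA. A match is a description of letters and not of a bound site. The starts used for Ifitm1 (chr7:140968076) and Ifitm6 (chr7:141016892) lie inside the GENCODE spans given above, and other annotated starts were not searched.

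The filter kept 14179 of 15001 cells, 8066 in library 1 and 6113 in library 2, with medians of 8661 and 7875 UMIs. Ptprc, which encodes CD45, had a UMI in 97.4% and 97.3% of them. Siah1a was at 8.48 and 12.7 CPM (UMIs scaled to 1000000 UMIs of the cells summed) and Siah2 at 17.9 and 27.5 CPM in library 1 and library 2, from which no genotype was read. The libraries shared 11 barcode sequences. Cells were gated by marker UMIs into 18 types. Cells that passed gates of more than 1 lineage were left out as mixed (13.9% and 13.2%) and those that passed none as ungated (6.63% and 5.50%). In most gates every check marker that the gate did not use was over 2 times the level in the other cells. In the NK gate and in both CD8 T gates only 2 of 5 were. Irf4 was not in the gate of type 2 conventional dendritic cells, at 21.4 and 16.9 CPM. Tcrg-C1, a check marker of the gamma-delta T gate, had no value. Fibroblast markers summed to at most 21.1 CPM and epithelial markers to at most 78.7 CPM in any gate, and endothelial and platelet markers to at most 250 and 521 CPM. Erythroid markers reached 432 CPM in regulatory T cells of library 1, where 1 cell held 1500 of the 1501 UMIs.

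All errors below are exact 95% intervals (Poisson for CPM, Clopper-Pearson for shares of cells, conditional binomial for ratios). They cover counting error only and say nothing about mice. With 1 library of each kind there is no replicate check, no test and no p-value. Levels are per UMI and not per length, so they are compared between cell types and not between genes.

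Ifitm3 and Ifitm2 were high in monocytes, macrophages, neutrophils and 1 gate of dendritic cells, but not in all myeloid gates. Mast cells held 386 and 301 CPM of Ifitm3. Ifitm3 stood highest in classical monocytes, the Ly6c2-expressing precursors that enter inflamed tissue, at 6351 CPM (6278 to 6424) in library 1 and 6278 CPM (6199 to 6357) in library 2. Monocytes gated on Inhba and Thbs1 followed at 5660 and 5797 CPM, then type 2 conventional dendritic cells (cDC2) at 5205 and 5435, non-classical monocytes at 4843 and 4798, macrophages at 3903 and 4455, and neutrophils at 3304 and 3621. This order of 6 myeloid gates was the same in both libraries, and of its neighbours only the Inhba Thbs1 monocytes and cDC2 of library 2 had overlapping intervals. The gate for type 1 conventional dendritic cells (cDC1), which cross-present antigen to CD8 T cells, was lower, at 2042 and 2050 CPM. That gate also held macrophage transcripts: C1qa, C1qb, C1qc and Apoe together were at 14123 and 15345 CPM, near the 17920 and 19856 CPM of the macrophage gate, against 151 and 92.4 CPM in cDC2. A cell that passed both gates was counted as cDC1, which was so for 49 of 97 and 22 of 35 of its cells. Without them, a restriction chosen after the data were seen, Ifitm3 was at 1544 and 1554 CPM. The neutrophil level of library 1 depended on a few deep cells and was 2091 CPM without those over 2 times the median depth of the gate.

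Below the cDC1 gate the Ifitm3 levels were lower still. Migratory dendritic cells, which express Ccr7, held 1227 CPM (1155 to 1303) and 886 CPM (819 to 957), plasmacytoid dendritic cells 741 and 920, and CD4 T cells 658 and 670. NK cells held 314 CPM (304 to 324) and 266 CPM (256 to 276). The lowest gate of library 1 was gamma-delta T cells at 164 CPM, and that of library 2 was B cells at 64.9 CPM, from 11 UMIs. From the highest to the lowest gate the level of Ifitm3 thus differed 38.8-fold in library 1 and 96.8-fold in library 2.

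Ifitm2 had its highest level in neutrophils rather than in monocytes. The neutrophil level was 3350 CPM (3147 to 3562) in library 1 and 4772 CPM (4573 to 4977) in library 2. Behind it came cDC2 at 2477 and 2767 CPM, classical monocytes at 2279 and 2670, non-classical monocytes at 1985 and 2166, Inhba Thbs1 monocytes at 1823 and 2616, and macrophages at 1597 and 2078. The neutrophil interval overlapped no other gate in either library. Mast cells held 611 and 504 CPM and NK cells 432 and 531 CPM, while gamma-delta T cells held 37.2 and 93.8 CPM from 15 and 32 UMIs. Counts of Ifitm2 are uncertain in one respect: 46.0% of the 60-base words of its transcript, and 24.5% of those in its last 300 bases, also occur in other annotated genes, among them Ifitm3 and several pseudogenes. Those pseudogenes held 0 to 3 UMIs each per library, and the sources used here do not say how reads matching several genes were counted. The shares were 2.49% for Ifitm1, 5.49% for Ifitm3 and 0 for Ifitm6 and Ifi27l2a.

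Ifitm6 was found mainly in monocytes, cDC2 and neutrophils and was close to 0 in lymphocytes. Non-classical monocytes, which patrol vessels, held 512 CPM (482 to 544) and 472 CPM (429 to 518), and classical monocytes 484 CPM (464 to 504) and 546 CPM (523 to 569). The levels were 268 and 339 CPM in cDC2, 248 and 332 in Inhba Thbs1 monocytes, and 194 and 403 in neutrophils. Macrophages, many of which derive from monocytes, held only 70.8 CPM (65.3 to 76.5) and 93.1 CPM (84.3 to 103). Classical monocytes were therefore above macrophages by 2.77 on the log2 scale in library 1 and 2.55 in library 2. Between these gates 11.1% and 9.63% of all genes tested differed at least 2 times. All T, NK, B and mast cell gates were at 18.7 CPM or less. Ifitm6 had 0 UMIs in plasmacytoid dendritic cells of library 1 and in mast, gamma-delta T and B cells of library 2, where 3 UMIs would have been 11.9, 7.00, 8.79 and 17.7 CPM.

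Ifitm1 followed neither pattern. It was highest in cDC2, which present antigen to CD4 T cells, at 2787 CPM (2681 to 2896) in library 1 and 3670 CPM (3524 to 3820) in library 2. Neutrophils came next with 1361 CPM (1233 to 1499) and 3066 CPM (2907 to 3231). In library 1, 1 neutrophil held 34.1% of these UMIs, and the level without it was 928 CPM. CD8 T cells without UMIs of Pdcd1 and Havcr2 came after the neutrophils with 630 CPM (603 to 658) and 1156 CPM (1119 to 1194). A lymphocyte gate thus stood above classical monocytes, at 337 and 482 CPM, and above macrophages, at 371 and 799 CPM. In cells of that gate with no UMI of the macrophage genes C1qa, C1qb, C1qc and Apoe, Ifitm1 was at 352 and 1289 CPM. In library 1 that is below the macrophages. Over all cells of each gate, the first 3 places were the same in both libraries, with intervals that did not overlap their neighbours. Non-classical monocytes were near the bottom at 99.9 CPM (86.8 to 114) and 74.1 CPM (57.7 to 93.6), and gamma-delta T cells lowest or nearly so at 14.9 and 14.7 CPM, from 6 and 5 UMIs.

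Ifi27l2a was highest in regulatory T cells, the Foxp3-expressing cells that restrain other T cells. Their level was 5074 CPM (4999 to 5149) in library 1 and 3821 CPM (3728 to 3915) in library 2. CD4 T cells without Foxp3 followed with 4458 CPM (4309 to 4611) and 2374 CPM (2262 to 2491). Classical monocytes at 3237 and 1851 CPM and Inhba Thbs1 monocytes at 3032 and 1880 came next, with overlapping intervals in both libraries. NK cells were lowest at 137 CPM (131 to 144) and 51.2 CPM (46.9 to 55.8), below mast cells at 325 and 88.7 CPM. The gene thus split the lymphocytes, with regulatory T cells 37.0-fold above NK cells in library 1 and 74.7-fold in library 2.

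**Figure D1:**
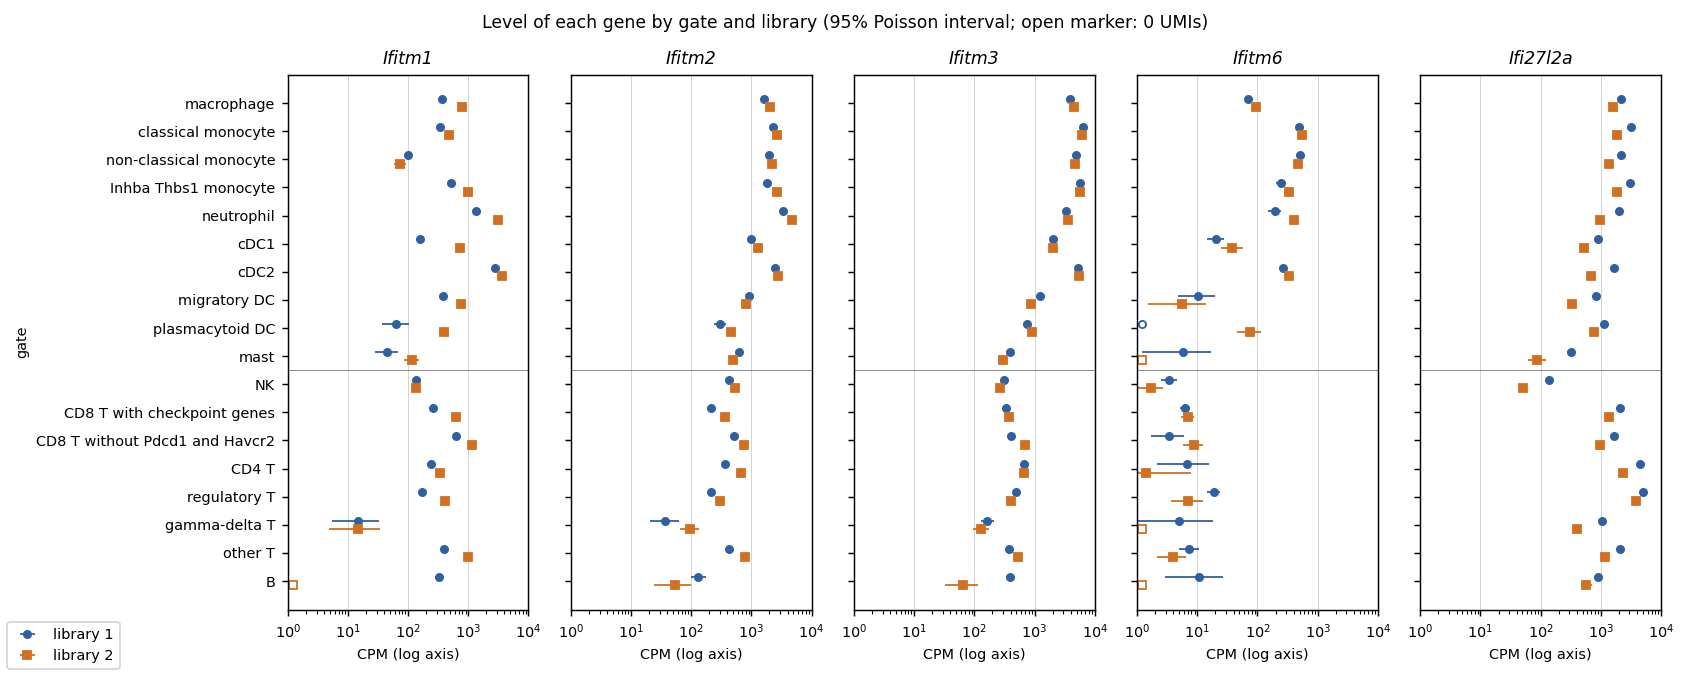
Level of each of the 5 genes (CPM, log scale) in the 18 gated cell types, with 1 point per library and bars for the exact 95% Poisson interval. Ifitm3 and Ifitm2 sit high in the monocyte, macrophage, neutrophil and cDC2 gates, Ifitm6 falls away outside monocytes, cDC2 and neutrophils, Ifitm1 peaks in cDC2 at 2787 and 3670 CPM, and Ifi27l2a peaks in regulatory T cells at 5074 and 3821 CPM.

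Levels can rise through more cells with a transcript or more transcripts per cell, so shares of cells with a UMI were read after each cell was thinned to 3000 UMIs, leaving out shallower cells. That left out 28 of 779 and 13 of 385 macrophages and 24 of 1130 and 37 of 1004 NK cells, but 58 of 90 and 104 of 142 neutrophils. Ifitm3 was found in 99.4% and 99.3% of classical monocytes and Ifitm2 in 98.5% and 99.1%, so nearly every cell held both. In NK cells the shares were 34.3% and 27.9% for Ifitm3 and 28.2% and 25.7% for Ifitm2 (58.9% and 44.1%, and 44.8% and 36.2%, without thinning). Ifitm6 was found in 61.7% and 66.2% of classical monocytes, in 17.0% and 19.1% of macrophages, and in at most 2.75% of the cells of any T, NK or B gate. Ifi27l2a was found in 97.3% and 92.2% of regulatory T cells against 20.5% and 8.89% of NK cells (98.5% and 94.4% against 41.2% and 18.1% without thinning).

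Ifitm1 was unevenly spread within its gates. It was found in 75.0% and 71.7% of cDC2, 29.7% and 51.6% of macrophages, 24.3% and 36.3% of CD8 T cells without Pdcd1 and Havcr2, and 7.87% and 7.86% of NK cells (85.9% and 78.3%, 45.8% and 66.5%, 29.0% and 41.4%, and 16.6% and 15.0% without thinning). Most cells of that CD8 gate thus had no Ifitm1 UMI at this depth.

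**Figure D2:**
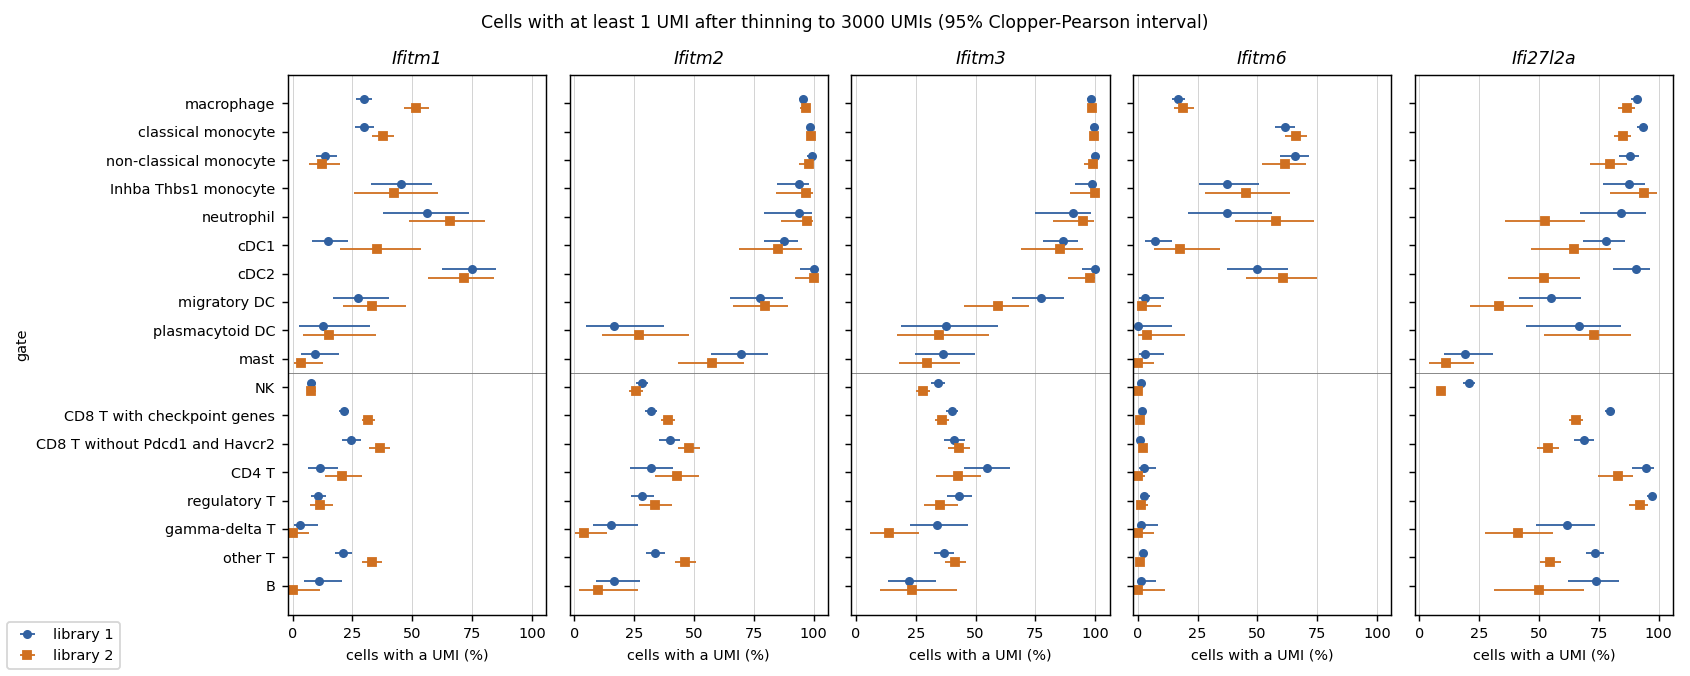
Percent of cells with a UMI of each gene after thinning to 3000 UMIs per cell, by cell type and library, with exact 95% Clopper-Pearson bars. Ifitm2 and Ifitm3 reach 90% or more of macrophages, monocytes and neutrophils, whereas Ifitm1 stays at 75.0% or lower everywhere.

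Free RNA in droplets can put a UMI into a cell that does not express the gene. Ratios to genes of possible source cells are given as a description, since several cell types hold each member. Per UMI of Ifitm6 there were 13.1 and 11.5 UMIs of Ifitm3 in classical monocytes. The T, NK, B and mast cell gates held 25.8 to 120 in library 1, and 53.2 to 476 in library 2 where they held Ifitm6. Macrophages, another possible source, also held more Ifitm3 per UMI of Ifitm6 than classical monocytes. Their UMIs of Ifitm3 and Ifitm6 were 34689 and 629 in library 1 and 19813 and 414 in library 2. Per UMI of C1qa, a complement gene of macrophages, there were 0.50 and 0.36 UMIs of Ifi27l2a in macrophages, 3.17 and 3.86 in NK cells, and 109 and 190 in regulatory T cells. How much of the lymphocyte UMIs is free RNA was not tested.

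Several pairs of related cell types were set side by side within each library, where the libraries need not be compared. In Ifitm1, cDC2 exceeded the cDC1 gate by 4.16 on the log2 scale in library 1 (2787 against 156 CPM) and by 2.33 in library 2 (3670 against 730 CPM), in a comparison where 12.6% and 11.6% of all genes tested differed at least 2 times. Ifitm2 and Ifitm3 also stood higher in cDC2, 2.16- to 2.65-fold. Without the cDC1 that also passed the macrophage gate, which left 48 and 13 cells, cDC2 exceeded cDC1 in Ifitm1 by 3.63 and 1.95 on the log2 scale (2787 against 225 and 3670 against 952 CPM), in Ifitm2 2.92-fold and 2.20-fold, and in Ifitm3 3.37-fold and 3.50-fold. Non-classical monocytes held 0.30 and 0.15 of the classical monocyte level of Ifitm1 (log2 -1.75 and -2.69). In Ifitm6 the log2 difference was 0.08 and -0.21. Between these monocyte gates 6.1% and 8.58% of all genes tested differed at least 2 times. Neutrophils exceeded classical monocytes in Ifitm1 4.04-fold and 6.36-fold but held 0.52 and 0.58 of their Ifitm3 level. In that comparison 21.8% and 33% of all genes tested differed at least 2 times, and 22.9% and 34.0% had a lower ratio than Ifitm3.

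Among CD8 T cells, those without Pdcd1 and Havcr2 (genes of inhibitory receptors) had more Ifitm1 and Ifitm2 than those with checkpoint genes. Ifitm1 was at 630 against 262 CPM in library 1 and 1156 against 630 CPM in library 2, or 2.40-fold and 1.84-fold. Ifitm2 was at 520 against 213 CPM and 758 against 360 CPM, or 2.45-fold and 2.10-fold. Ifi27l2a went the other way, at 1669 against 2102 CPM and 969 against 1363 CPM, or 0.79-fold and 0.71-fold. Of all genes tested, 9.81% and 8.35% differed at least 2 times between these gates. The gates differ in depth (medians of 6031 and 5994 UMIs against 9115 and 7780), and its part in the result was not tested. In CD8 T cells with no UMI of the macrophage genes C1qa, C1qb, C1qc and Apoe, a restriction that left 125 of 500 and 253 of 1383 cells of library 1, the Ifitm1 contrast turned there, to 352 against 404 CPM, and it kept its direction in library 2 (1289 against 748 CPM). The Ifitm2 and Ifi27l2a contrasts kept their direction in both libraries under that restriction.

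NK cells and gamma-delta T cells, both innate-type lymphocytes, differed in genes of both families. NK cells held 0.065 and 0.038 of the Ifi27l2a level of checkpoint CD8 T cells, while gamma-delta T cells exceeded NK cells in it 7.59-fold and 7.92-fold. Gamma-delta T cells held 0.12 of the NK level of Ifitm1 in each library and 0.089 and 0.18 of the NK level of Ifitm2. Regulatory T cells were above CD4 T cells in Ifi27l2a by 1.14-fold and 1.61-fold and below them in Ifitm2, at 0.59 and 0.44 of the level. The shares of all genes tested that differed at least 2 times were 13.5% and 13.4% for NK against checkpoint CD8 T cells. They were 11.1% and 9.33% for gamma-delta T against NK cells, and 7.41% and 7.91% for regulatory against CD4 T cells.

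Within the NK gate the transcripts of Ifitm1, Ifitm2 and Ifitm3 were concentrated in cells rich in granzymes D to G, proteases of cytotoxic granules. This split was chosen after the data were seen. Cells with at least 10 UMIs of Gzmd, Gzme, Gzmf and Gzmg together (159 and 140 cells) held 413 and 418 CPM of Ifitm1, and cells with none (644 and 712 cells) held 51.6 and 38.0 CPM. The fold was 7.99 (7.05 to 9.10) and 11.0 (9.51 to 12.8). Ifitm2 was at 1156 and 1641 CPM against 174 and 176 CPM, and Ifitm3 at 572 and 561 CPM against 217 and 160 CPM. Ifitm6 was too rare to be placed, with 8 against 23 UMIs in library 1 and 0 against 12 UMIs in library 2. Ifi27l2a was lower in the granzyme-rich cells, at 80.7 and 39.9 CPM against 162 and 55.4 CPM. The granzyme-rich cells were deeper (medians of 15673 and 14622 UMIs against 8576 and 7377), and although CPM scales by total UMIs, the part of depth or of activation in these values was not tested.

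In NK cells and in T cells other than gamma-delta T cells, the transcripts of Ifitm1, Ifitm2 and Ifitm3 tended to occur in the same cells. After thinning, CD8 T cells without Pdcd1 and Havcr2 that had an Ifitm1 UMI also had an Ifitm2 UMI in 71.9% of cases (62.7 to 79.9) in library 1 and 81.2% (74.5 to 86.8) in library 2, against 29.5% (24.8 to 34.5) and 28.9% (23.8 to 34.4) of those without one. For checkpoint CD8 T cells the shares were 61.4% and 70.6% against 23.8% and 24.6%, and for NK cells 65.5% and 71.1% against 25.0% and 21.9%. Ifitm3 showed the same direction, at 61.4% and 61.8% against 34.6% and 32.6% in CD8 T cells without Pdcd1 and Havcr2. In macrophages, where nearly all cells held Ifitm2, the shares were 97.3% and 96.4% with Ifitm1 against 95.1% and 97.2% without.

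Ifi27l2a was found less often in the T cells that held Ifitm1. In CD8 T cells without Pdcd1 and Havcr2 the shares with an Ifi27l2a UMI were 54.4% (44.8 to 63.7) and 40.6% (33.1 to 48.4) in cells with Ifitm1, against 73.6% (68.7 to 78.1) and 61.4% (55.6 to 67.0) in cells without. Checkpoint CD8 T cells gave 67.6% and 52.3% against 82.9% and 71.4%. The 2 groups of cells did not overlap in their intervals in either gate or library. Cells of a library are not replicates, so these intervals describe the cells of these libraries.

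Spearman correlations over thinned cells gave the same picture as a description. They share library and depth within each gate. Over the 5 T gates other than gamma-delta and both libraries (10 values), Ifitm1 with Ifitm2 ranged from 0.24 to 0.67 and Ifitm2 with Ifitm3 from 0.22 to 0.63, whereas Ifitm1 with Ifi27l2a ranged from -0.35 to -0.12. Ifitm6, rare in these cells, ranged from -0.06 to 0.28 with Ifitm1 (9 values) and gave 0.03 and 0.05 in NK cells. The 65 gamma-delta T cells of library 1 gave -0.08 for Ifitm1 with Ifitm2 and 0.21 for Ifitm1 with Ifi27l2a. Only 3.08% of them had an Ifitm1 UMI after thinning, so these values cannot place them beside the other T gates. In macrophages and both monocyte gates (6 values) Ifitm3 with Ifi27l2a ranged from 0.30 to 0.56 and Ifitm1 with Ifitm2 only from -0.04 to 0.24.

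**Figure D3:**
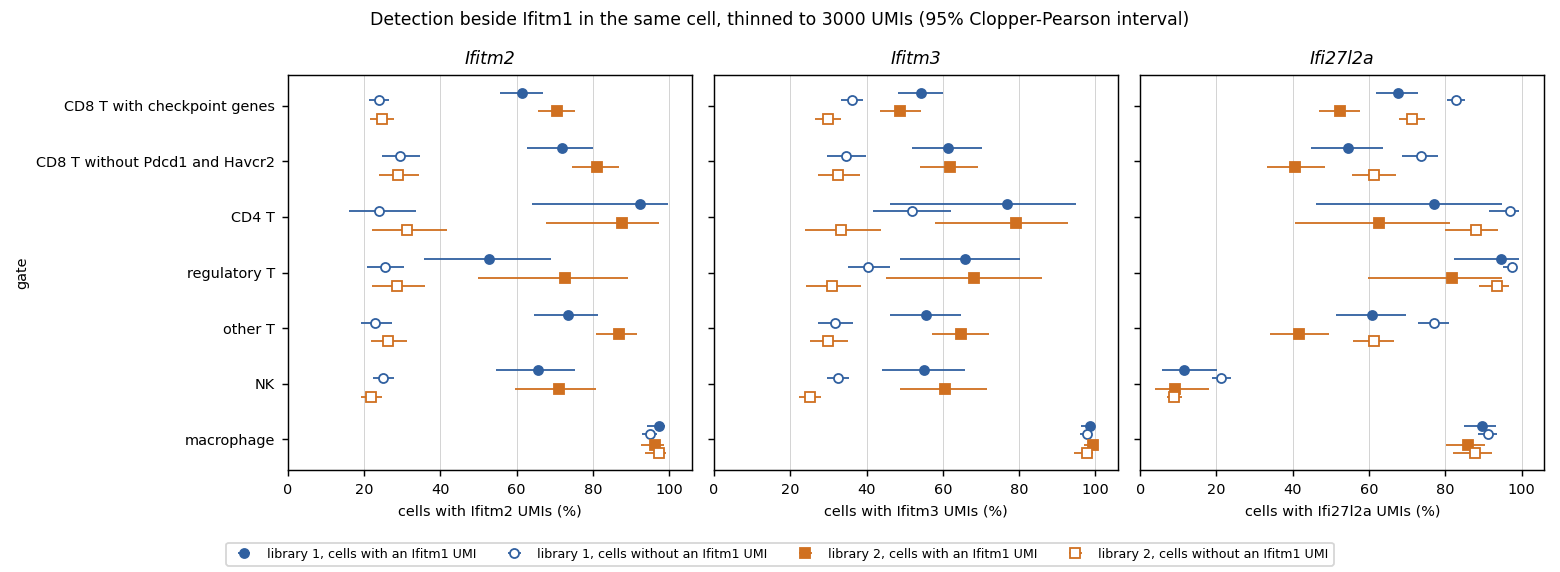
Percent of cells with a UMI of another member among cells with and without an Ifitm1 UMI, after thinning to 3000 UMIs, by cell type and library, with exact 95% Clopper-Pearson bars. In the CD8 T, other T and NK gates the points for Ifitm2 part widely (71.9% against 29.5% in CD8 T cells without Pdcd1 and Havcr2 of library 1), and in macrophages they sit together near 95.1% or higher.

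The libraries were set against each other in the 14 gates that held at least 50 cells in each. Ratios are log2 of library 2 over library 1, and a gene was counted as called where it had 50 UMIs over both libraries, differed at least 2 times and had an interval that excluded equality. Of all genes tested, the share called was 1.75% in macrophages, 1.18% in classical monocytes, 1.95% in non-classical monocytes, 3.72% in neutrophils, 3.26% in migratory dendritic cells, 1.73% in mast cells, 1.34% in NK cells, 1.84% in CD8 T cells with checkpoint genes, 1.54% in CD8 T cells without Pdcd1 and Havcr2, 1.92% in CD4 T cells, 1.85% in regulatory T cells, 1.83% in gamma-delta T cells, 1.24% in other T cells and 2.63% in B cells. Of the 61 member and gate pairs that had enough UMIs, 18 were called. Since library ratios of these genes led to their choice, the counts are a description and nothing is read from their excess over the background.

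Ifi27l2a was lower in library 2 in each of the 14 gates, beyond counting error in all 14, and at least 2 times lower in 5. In NK cells it was at 137 CPM in library 1 and 51.2 CPM in library 2 (log2 -1.42, -1.57 to -1.28). In mast cells it was at 325 and 88.7 CPM (log2 -1.86, -2.42 to -1.36), the lowest of the 14 ratios, from 166 and 38 UMIs, but it was -0.08 where cells that passed several lineage gates were given to the lineage with the most marker UMIs. Gamma-delta T cells gave -1.36, migratory dendritic cells -1.32 and neutrophils -1.05. The smallest of the 14 differences were in regulatory T cells, at -0.41 (-0.45 to -0.37), and macrophages, at -0.44 (-0.48 to -0.40), and the remaining gates lay between -0.91 and -0.62. The median over the 14 gates was -0.82.

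Macrophage transcripts moved with Ifi27l2a in lymphocytes. C1qa, C1qb, C1qc and Apoe together were at 182 CPM in NK cells of library 1 and 61.9 CPM in library 2 (log2 -1.56), and lower in library 2 in each T gate (log2 -1.40 to -0.95), though not in B cells (0.17). In NK cells with no UMI of these 4 genes (215 and 590 cells) Ifi27l2a stood at 168 and 67.0 CPM (log2 -1.33, -1.55 to -1.10). In the T and B gates the same restriction left ratios from -1.33 to -0.68. The difference was present in cells without these UMIs. Such cells can still hold free RNA, and its part in the difference was not tested. In the neutrophil gate the same 4 genes were at 2301 and 687 CPM (log2 -1.74), and S100a8 and S100a9 together at 31446 and 51240 CPM. In migratory dendritic cells the 4 genes were at 192 and 637 CPM (log2 1.73). The restriction was not applied to these gates, and the part of other cells' transcripts in their ratios was not tested for any member.

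Ifitm1 was higher in library 2 in most gates. In macrophages it was at 371 CPM (358 to 384) in library 1 and 799 CPM (773 to 826) in library 2 (log2 1.11, 1.04 to 1.18). Checkpoint CD8 T cells held 262 and 630 CPM (log2 1.26), regulatory T cells 173 and 412 CPM (1.26; 80.9 and 252 CPM without cells over 2 times the median depth) and other T cells, a gate of T cells that passed no subset gate, 389 and 990 CPM (1.35). Of 13 gates with enough UMIs, 10 were above counting error and 7 were called higher. NK cells stood out with 134 CPM in each library (log2 -0.00, -0.11 to 0.10), and non-classical monocytes were lower, at 99.9 and 74.1 CPM (log2 -0.42, -0.84 to -0.03). In cells with no UMI of C1qa, C1qb, C1qc and Apoe the Ifitm1 ratio was 0.75 in NK cells, 0.89 in checkpoint CD8 T cells, 0.76 in other T cells and 3.07 in regulatory T cells, so its size in lymphocytes moved with the cells kept.

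A few cells carry some of these sums. In mast cells 69.6% and 85.7% of the Ifitm1 UMIs (23 and 49 in all) lay in 1 cell of each library, and without these cells the log2 ratio was 0.27 rather than 1.33. In CD4 T cells 1 cell held 53.4% of the library 1 UMIs, and without the top cells the ratio was 1.40 rather than 0.54. In B cells 126 Ifitm1 UMIs stood against 0, and 113 of them came from 1 cell of 14108 UMIs (gate median 3219) that also held 109 Ifitm3 UMIs but 3 of Cd79a and 1 of Ms4a1. At 3 UMIs, B cells of library 2 would have been at 17.7 CPM of Ifitm1. That is 18.8-fold below the 332 CPM of library 1, and 2.01-fold below the 35.5 CPM without that cell. These folds leave out the counting error of library 1, and the interval over all cells ended at a log2 ratio of -3.91.

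Ifitm2 was higher in library 2 by smaller steps. Of 13 gates, 10 were above counting error, 3 below, and none was called higher. Macrophages held 1597 and 2078 CPM (log2 0.38), checkpoint CD8 T cells 213 and 360 CPM (0.76), other T cells 424 and 781 CPM (0.88) and CD4 T cells 365 and 677 CPM (0.89, 0.67 to 1.11). Migratory dendritic cells (-0.16), mast cells (-0.28) and B cells (-1.25) went the other way, the last from 50 and 9 UMIs, and at -0.51 without the top cell.

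Ifitm3 had no common direction. It was above counting error in 5 gates, below in 5 and within it in 4, with a median log2 ratio of -0.01 over the 14 gates. Where it was highest the libraries lay close together: classical monocytes gave -0.02 (-0.04 to 0.01) and non-classical monocytes -0.01 (-0.06 to 0.04). The largest increase was in CD8 T cells without Pdcd1 and Havcr2, at 404 and 693 CPM (log2 0.78, 0.68 to 0.88), and NK cells were lower in library 2, at 314 and 266 CPM (-0.24, -0.31 to -0.17). Ifitm6 had enough UMIs in 7 gates. It was at 194 and 403 CPM in neutrophils (log2 1.05, from 59 and 183 UMIs), 70.8 and 93.1 CPM in macrophages (0.40) and 484 and 546 CPM in classical monocytes (0.17), and it was lower in library 2 in NK cells (44 and 17 UMIs) and regulatory T cells (65 and 12 UMIs).

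**Figure D4:**
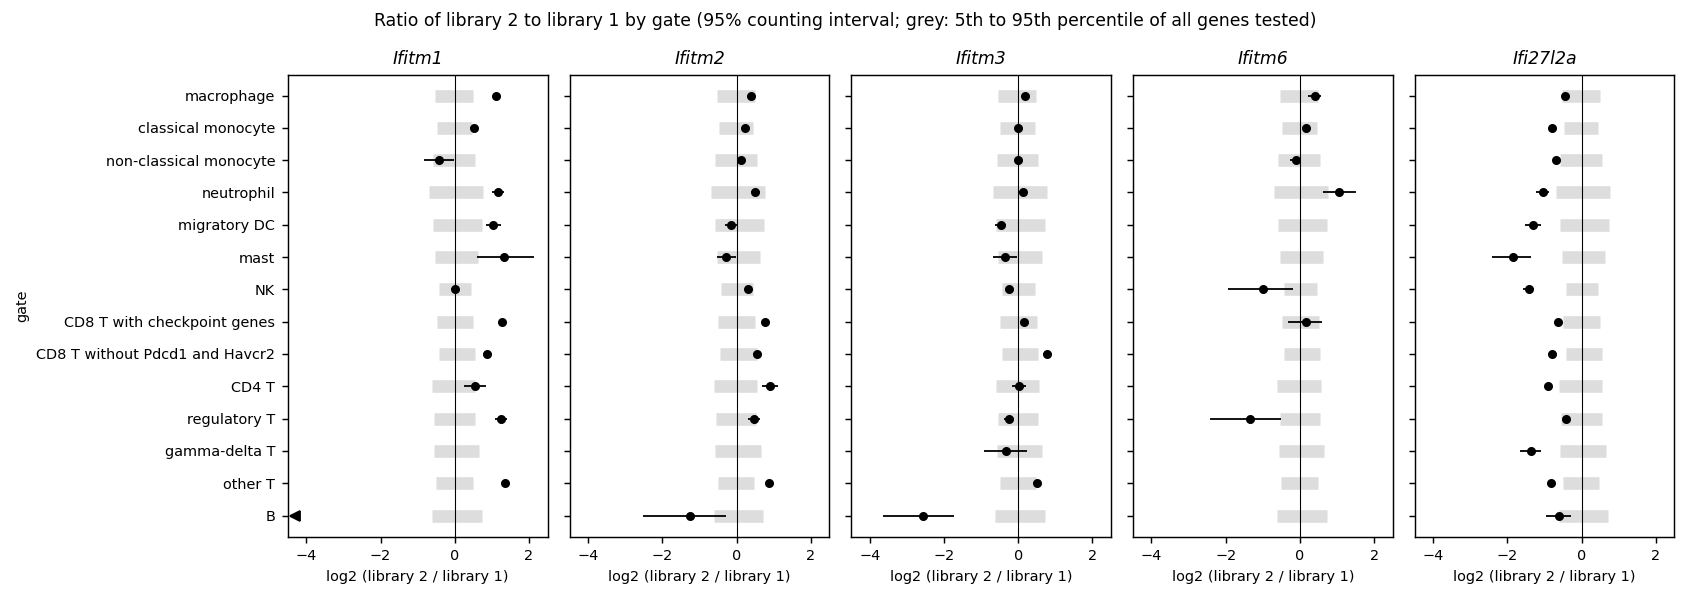
Log2 ratio of library 2 over library 1 for each gene and compared cell type, with exact 95% intervals that cover counting error only. All 14 Ifi27l2a points lie below 0, Ifitm1 lies above 0 in most gates, and Ifitm3 lies on both sides.

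Other interferon-stimulated genes were set beside the members. As a background, 11.9% of all 86556 gene and gate pairs with enough UMIs were above counting error (6.67% to 17.8% by gate) and 8.15% were below (5.35% to 12.5%). Of 30 listed genes, such as Isg15, Mx1 and Usp18, 345 gene and gate pairs had enough UMIs, of which 50 were above counting error, 118 below, 0 called higher and 30 called lower in library 2. The list's median was below 0 in 10 gates, lowest in migratory dendritic cells (-0.83) and mast cells (-0.81), and above 0 in 4 T gates: other T cells (0.20), CD8 T cells without Pdcd1 and Havcr2 (0.11), regulatory T cells (0.10) and checkpoint CD8 T cells (0.07). The median of all genes lay between -0.01 and 0.09 in each gate. In those 4 T gates Ifi27l2a was at -0.83, -0.78, -0.41 and -0.62, on the other side of 0 from the list. Of 24 listed genes tested in at least 10 gates, 0 had a negative ratio in every one. Oas1a, which encodes an oligoadenylate synthetase that senses double-stranded RNA, was below counting error in 8 of 8 gates, 7 of them called, for instance at 26.2 and 9.30 CPM in NK cells.

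Genes induced mainly by interferon gamma were more often above counting error than below it. Of 12 listed genes, 144 pairs had enough UMIs, with 65 above and 22 below counting error and 5 and 3 called higher and lower. Irgm1, a GTPase of cell-autonomous defence, was above in 9 of 11 gates and Irf1, a transcription factor, in 11 of 14. Cxcl9 was above in 3 of 10 gates and below in 5, and Cxcl10 above in 3 of 12 and below in 7. Of the 12 genes, 10 had a median ratio above 0 over their gates and 2 below. Among 8 ligand genes only Ifng had enough UMIs, in 8 gates, 7 of them above, and in NK cells it was at 101 and 225 CPM. Receptor and signalling genes gave 19 pairs above and 5 below of 118, with 0 called, and the share above lay within the range of all genes.

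**Figure D5:**
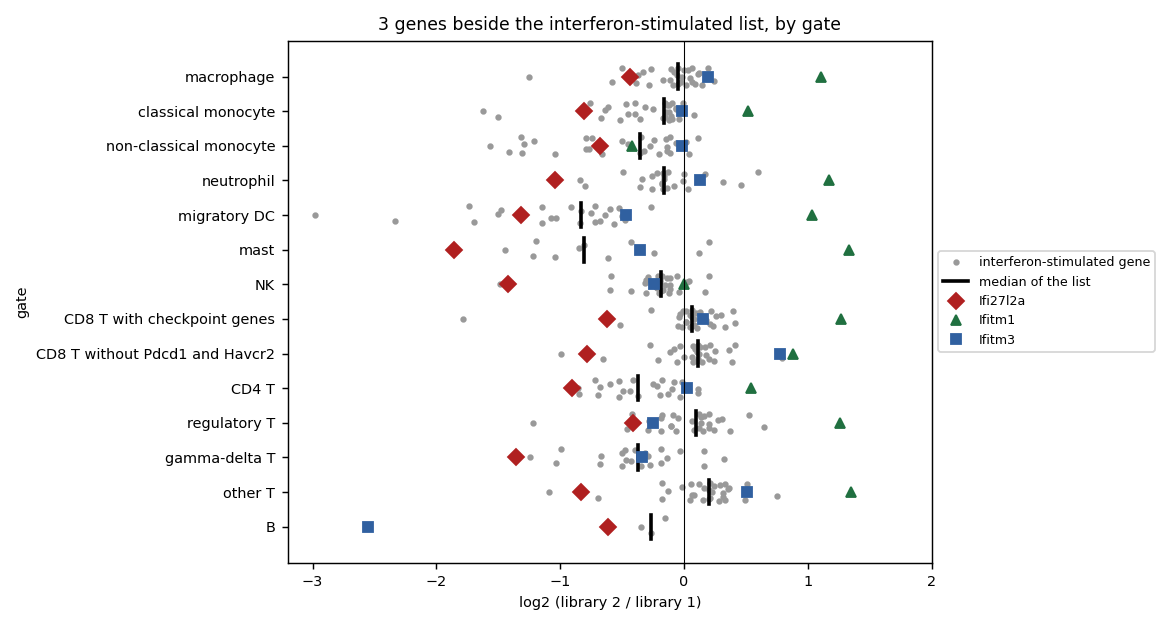
Log2 ratio of library 2 over library 1 of each gene of the interferon-stimulated list (grey points) and the list median (black bar) in each compared cell type. Ifi27l2a, Ifitm1 and Ifitm3 are marked where they had enough UMIs, except Ifitm1 in B cells, which lies outside the axis. The list median crosses 0 between gates, from -0.83 in migratory dendritic cells to 0.20 in other T cells, while every Ifi27l2a point is below 0.

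The remaining genes of both families were little expressed or differed little. Ifitm10 and Ifi27 had enough UMIs in some gates, with 5 of 17 pairs above counting error, 0 below and 0 called. Ifi27, which lies within 200 kb of Ifi27l2a, ranged from -0.06 to 0.84 over 13 gates. Ifitm5 had 52 and 51 UMIs over all cells, Ifitm7 1 and 0, and Ifi27l2b 0 and 2, and Ifi27l1 was not analysed here. Among 4 genes of Ifitm3 modification and turnover, 5 of 39 pairs were above, 5 below and 1 called lower (Nedd4 in regulatory T cells, at 16.7 and 6.50 CPM).

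Neighbours of the members were set beside them too. Within 200 kb of the Ifitm genes 13 genes had enough UMIs, giving 102 pairs with 0 called, 12 above and 4 below, and a median of 0.09. The 4 below were all Gm15542. Within 200 kb of Ifi27l2a, 4 genes gave 34 pairs, 6 above and 5 below, with a median of 0.0005. Of the 5 below, 4 were Ddx24 and 1 was Asb2. The 2 called were both higher in library 2 and both Gm47260.

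Over the 14 compared gates, with both libraries summed, Ifitm3 resembled Ifitm6 (Pearson r of log2(CPM + 10) of 0.92) and Ifitm2 (0.90), and Ifitm2 and Ifi27l2a had the lowest correlation of any pair (0.19). Among 5452 genes at 50 CPM or more in some gate, those most like Ifitm3 were Ifi207 (0.97), App (0.96), Ms4a6c (0.96), Nupr1 (0.96) and Rnd3 (0.95). Those most like Ifitm6 were Mgst1 (0.99), Hp (0.98), AI839979 (0.98), Gda (0.98) and Mtus1 (0.98), and those most like Ifitm2 were Ifitm3 itself (0.90), Cdkn1a, Mir22hg, Stk40 and Lgals3 (all 0.89). Ifi27l2a was most like Matk (0.89), then Ube2j1 (0.80), Agpat4 (0.80), Slfn1 (0.80) and Ubl3 (0.79). No gene came as close to Ifitm1, for which AA467197 (0.76), Sra1 (0.73), Lmnb1 (0.68), 1810013L24Rik (0.68) and Chd7 (0.68) led. These names depend on the setting: of the 5 genes named for each member, 2 stayed among its 5 most alike with library 1 alone, 1 to 3 with library 2 alone and 1 to 4 with a pseudocount of 1. For example, 1810013L24Rik correlated with Ifitm1 at 0.78 in library 1 alone and 0.42 in library 2 alone. Gates of a library share their depth and free RNA, and the correlations are a description over 14 points.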

How the data were processed

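The authors deposited 1 matrix of UMI counts, whole numbers per gene and cell barcode that were not normalized, made with Cell Ranger 6.1.2 on mm10, per the submitters' processing notes. Libraries were prepared with the 10x 3' v3.1 kit, per the labels' protocols. The gene annotation, the treatment of reads that match several genes and any subsampling are not given in the sources used here. Barcode endings were not assigned to a genotype.

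Barcodes under 500 genes or over 10% mitochondrial UMIs were left out (456 and 366). Cell types were gated by UMIs of 2 or more markers. No doublet caller was run, and cells that passed gates of more than 1 lineage were left out. UMIs were summed per gate and library and scaled to the gate's total. A pseudocount of 0.5 UMI entered each ratio, and genes needed 50 UMIs over both libraries. The thinning to 3000 UMIs per cell was seeded. Coordinates are from GENCODE M21, where the versioned gene ID is the same (54349 of 55401), and the promoters from RefSeq. Python 3.11.15, numpy 2.4.6, scipy 1.17.1 and pandas 2.3.3 were used, with figures by matplotlib 3.10.9. Ratios and their intervals were tested on simulated data.

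The members and the gene lists were chosen with earlier results of these data known. Named genes are the members, their families, the interferon and turnover lists, the 5 genes most like each member and the genes within 200 kb, and other genes were chosen after their values were seen. Alternatives were another cell filter, doubled marker minimums, other scalings, gates without deep cells or without cells holding macrophage transcripts, and other minimums and folds. Leaving out the top cell, assigning mixed cells to a lineage and leaving cells that pass the macrophage gate out of the cDC1 gate were chosen after seeing the data.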

Additional observations from a re-analysis of the deposited data

Results flagged for a closer look

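Some genes had a ratio of library 2 over library 1 that lay beyond counting error on one side of 0 in some cell types and on the other side in others. With 1 library of each kind, none of these differences between cell types was tested. Values are log2 ratios.

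Ifitm1 was above counting error in 10 cell types and below it in non-classical monocytes (-0.42) and in B cells (-6.82, from 126 and 0 UMIs, a value that depends on the pseudocount and is no bound). Ifitm2 was above in 10 cell types and below in migratory dendritic cells (-0.16), mast cells (-0.28) and B cells (-1.25). Ifitm3 was above in 5 cell types, and below in migratory dendritic cells (-0.47), mast cells (-0.36), NK cells (-0.24), regulatory T cells (-0.25) and B cells (-2.56). Ifitm6 was above in 3 cell types and below in NK cells (-1.01) and regulatory T cells (-1.35). Ifi27l2a had no such split.

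In B cells of library 1, 1 cell held 113 of the 126 Ifitm1 UMIs, 30 of the 50 Ifitm2 UMIs and 109 of the 151 Ifitm3 UMIs. Without the cell with the most UMIs of each gene, the B cell ratios were -3.62 for Ifitm1, -0.51 for Ifitm2 and -1.01 for Ifitm3.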

How the results depend on the processing

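No paired analysis was possible because each kind of sample has 1 library, and for the same reason no replicate could be left out. Ifi27l2a stayed lower in library 2 beyond counting error in 14 of 14 cell types under the alternatives that kept all of them, except that 13 were where mixed cells were assigned to a lineage. Another scaling moved no ratio to the other side of 0, and the median of all genes shifted by at most 0.09. Of the ratios that were called, those that turned were Ifitm1 in mast cells (-4.74 without cells over 2 times the median depth, -0.60 after thinning), Ifitm3 in B cells without macrophage transcripts (0.0199), and Ifitm2 in B cells (0.0426 without deep cells, 0.16 with mixed cells assigned). Ifitm1 in B cells without macrophage transcripts was at 0 CPM in both libraries. Its value of 0.41 there comes from the pseudocount alone and is no measurement. Ratios beyond counting error but under 2 times also changed side. Counting these and the called ones, Ifitm3 did so in 2 cell types with doubled marker minimums, 2 after thinning, and 1 each without macrophage transcripts, without deep cells and with mixed cells assigned, and Ifitm2 in 2 without deep cells and 2 with mixed cells assigned. The cause was not tested. Numbers of cell types moved as follows. Ifitm1 was below counting error in 1 with doubled marker minimums and in 1 after thinning, and at least 2 times lower in 2 without deep cells. Ifitm2 was below in 1 with doubled minimums, without deep cells, with mixed cells assigned or after thinning, and in 0 without the top cell. It was at least 2 times higher in 1 after thinning or without the top cell, and at least 2 times lower in 0 under all 5 of these. Ifitm3 was above in 2 after thinning, and at least 2 times lower in 0 without deep cells or with mixed cells assigned and in 2 after thinning. Ifitm6 was above in 1 and below in 1 after thinning, below in 0 with doubled minimums, at least 2 times higher in 0 without deep cells or with mixed cells assigned, and at least 2 times lower in 0 with doubled minimums or without deep cells and in 1 after thinning. Ifi27l2a was at least 2 times lower in 3 without deep cells or with mixed cells assigned. Of all gene and cell type pairs, 1512 were called, against 5000 at a minimum of 10 UMIs, 383 at a minimum of 200 and 5066 at a fold of 1.5. Leaving out cells of the cDC1 gate that pass the macrophage gate, added after seeing the data, moved Ifitm1 there from 156 and 730 CPM to 225 and 952 CPM. Depth limits most the neutrophils, with medians of 2677 and 2583 UMIs, and the B cells.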

Other observations

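Further groups of cells were picked by marker UMIs after the data were seen, and their members' levels are given as values. Among ungated cells, 56 in library 1 and 52 in library 2 held at least 5 UMIs of H2-DMb2, Cd209a and Mgl2, genes that dendritic cells express. Their Ifitm1 levels were 3373 and 4631 CPM, next to 2787 and 3670 CPM in the gated cDC2. Cells with at least 2 UMIs of Mcpt8, a basophil protease, numbered 5 and 20, and the 20 of library 2 held 4157 CPM of Ifitm1 and 163 CPM of Ifi27l2a. The 5 of library 1 held 263 and 350 CPM of these genes.

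Macrophages with at least 5 UMIs of Mrc1, Folr2 and Pf4, genes of resident macrophages (231 and 134 cells), held 162 and 498 CPM of Ifitm1 against 371 and 799 CPM in the whole gate, and 22.1 and 16.7 CPM of Ifitm6 against 70.8 and 93.1 CPM. Macrophages with at least 5 UMIs of Cxcl9, a chemokine gene induced by interferon gamma (155 and 109 cells), differed from those with none in Ifitm1 by 0.78-fold in library 1 and 1.47-fold in library 2, so the direction was not shared. Their Ifitm3 levels were 0.94- and 1.15-fold those of macrophages with no Cxcl9 UMI, and their Ifi27l2a levels 0.80- and 0.87-fold.

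T cells with at least 3 UMIs of the division genes Mki67 and Top2a (409 and 227 cells) held 135 and 336 CPM of Ifitm1 and 1923 and 1213 CPM of Ifi27l2a. CD8 T cells with UMIs of both Tcf7 and Pdcd1 (100 and 75 cells) held 206 and 975 CPM of Ifitm1, and 2110 and 1252 CPM of Ifi27l2a.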
